A study of Homo sapiens with 9 samples.

Results

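The 10 genes described here, in ovarian cancer cells, are those of RNA methyltransferases outside the METTL3 complex and of TRMT112, a partner of METTL5. They were given as a list of symbols (METTL16, METTL4, PCIF1, METTL5, TRMT112, ZCCHC4, METTL1, METTL2A, METTL6 and METTL8) and were found by gene identifier. No cut on a measured value picked them, but the list was made with earlier results of these data known. All 10 were present among the 60649 genes of the count table, and all 10 were among the 19674 genes with enough counts to be tested.

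RNA-seq was done on OVCAR5, an established human ovarian cancer cell line, in 9 libraries that the labels divide into 3 of NC, 3 of SM2 and 3 of SM4. NC is given as the control, described as parental cells in the labels and as cells with a control hairpin in the methods of the study, and SM2 and SM4 as cells with a knockdown of METTL3. The protocol in the labels, the same for all 9 libraries, is lentiviral infection followed by puromycin to keep infected cells, and whether the resulting lines are pools or clones is not stated, while a source field names a different OVCAR line for each SM4 library although the cell line field says OVCAR5 for every one. The labels do not say which hairpin SM2 or SM4 carries, nor whether the 3 libraries of a group came from separate cultures, so the p-values below measure only the spread between these libraries.

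Methyltransferases of this family move a methyl group from S-adenosylmethionine to a base of RNA, and each acts on its own kind of RNA. METTL3 is the enzyme that places most N6-methyladenosine in messenger RNA, whereas METTL16 and METTL4 act on small nuclear RNAs of the spliceosome, PCIF1 acts beside the cap of messenger RNA, METTL5 and ZCCHC4 act on ribosomal RNA, and METTL1, METTL2A, METTL6 and METTL8 act on transfer RNA. Several of them need a second protein to be stable or to find their substrate, among which TRMT112 serves METTL5 and a group of other methyltransferases. In tumours this family is studied for its influence on splicing and on the translation of particular codons.

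Totals ranged from 44103272 to 63693728 counts per library. A level is given in counts scaled to a common library total after TMM normalization (CPM), as mean ± SD over n = 3 libraries where groups are summarised, and a gene was called when the edgeR quasi-likelihood test gave a Benjamini-Hochberg adjusted p below 0.05 over the 19674 genes. METTL3, the targeted gene, stood at 36.3, 34.4 and 36.6 CPM in NC, at 37.1, 39.8 and 40.01 CPM in SM2, and at 60.6, 57.5 and 62.4 CPM in SM4. It was therefore higher, not lower, in the libraries labelled SM4 (log2 fold change 0.75 ± 0.05 SE, edgeR adjusted p = 2.21e-09) and was not called in SM2 (0.12 ± 0.05 SE, edgeR adjusted p = 0.12). METTL3 was thus highest in SM4, where a knockdown is labelled, and which group served as the control is in doubt. The study lists METTL3 as lower with each of its 2 hairpins than in its control. Those differences have the sizes found here for SM4 against NC (0.75) and SM4 against SM2 (0.63), with the opposite sign. Were SM4 the control, SM2 against NC would compare 2 knockdown lines. The groups are named by their labels throughout, and no direction below is to be read as an effect of losing METTL3. With SM4 as the reference in place of NC, every value given for SM4 against NC or SM4 against SM2 changes its sign and keeps its size, error and p. Replicate 3 of SM2 stood apart from its group, with a chi-square per degree of freedom of 15.03 and 12.46 against the other 2 libraries, where pairs of replicates elsewhere gave 3.97 to 5.61. All 7 epithelial markers listed (EPCAM, CDH1, KRT7, KRT8, KRT18, KRT19 and CLDN4) were above 1 CPM, with a summed level of 11244 to 11730 CPM in NC, 12567 to 13134 in SM2 and 12160 to 12920 in SM4. Of 6 fibroblast, 5 leukocyte and 4 endothelial markers, 1 each passed 1 CPM (COL1A1, CD14 and PECAM1), and KDR was at 0. The summed leukocyte and endothelial markers were higher outside NC, at 8.13 to 10.6 and at 7.79 to 15.2 CPM against 5.43 to 6.32 and 5.42 to 5.85 CPM, and their part in the results below was not tested.

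Substrate sites of METTL16 and METTL4 are shown first, because they tell these enzymes apart more plainly than the names do. METTL16 methylates an adenosine inside a TACAGAGAA sequence, which is repeated in the 3′ untranslated region of MAT2A, the gene for the enzyme that makes S-adenosylmethionine. METTL4 methylates an adenosine of U2 small nuclear RNA within CAAG. Below are the first 60 bases of the U2 gene RNU2-2P (GRCh38, chr11:62841750-62841809, minus strand) and 3 of the 6 matches in MAT2A (plus strand, 30 bases each, at chr2:85543802-85543831, chr2:85545004-85545033 and chr2:85545112-85545141). They are written 5′ to 3′ with T for U, and capitals mark the match.
RNU2-2P: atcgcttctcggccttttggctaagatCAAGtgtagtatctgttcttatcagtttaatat
MAT2A site 1: tggcgtaggcTACAGAGAAgccttcaagct
MAT2A site 5: caaggtgtccTACAGAAAAaccttgggtta
MAT2A site 6: gctggtgtggTACAGAGAAgccagcttgtt
The methylated adenosine is at position 30 of RNU2-2P, counted from the 5′ end. Of the 6 MAT2A matches, 5 read TACAGAGAA and 1, the fifth, reads TACAGAAAA. The counts say how much of each enzyme's mRNA was present and nothing of methylation at these sites.

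Among the 10 genes, 3 fell in SM2 against NC (METTL4, METTL8 and ZCCHC4) and 4 fell in SM4 against NC (METTL4, METTL8, ZCCHC4 and METTL1), and none rose in either comparison. Without NC replicate 3 or without SM4 replicate 3 the count in SM4 was 2 (METTL4 and METTL8). The largest of these differences was that of METTL8 in SM2, a fall of 23.5%, and the smallest was that of METTL4 in SM4, a fall of 12.5%. In SM4 against SM2, which tests the difference between the groups directly, 0 of 10 were called by edgeR and 0 by DESeq2, with 2 (METTL4 and METTL1) at an unadjusted p under 0.05. Taken with SM4 as the reference, the same tests have 4 of the 10 higher in the libraries labelled NC, and 0 of 10 called in those labelled SM2. The comparisons with NC share the same 3 NC libraries, so a fall in both is not independent evidence of either.

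These counts stand against a wide background. In SM2 against NC, 22.3% of all genes tested were called, 12.0% higher and 10.3% lower. In SM4 against NC, 21.2% were called, 11.0% higher and 10.2% lower, and in SM4 against SM2, 12.8% were called, 6.04% higher and 6.76% lower. Among the 7562 tested genes whose mean level lay in the range of the 10 (13.9 to 148 CPM), the called share was 32.0%, 30.7% and 19.3% in the same order, so a count of 3 or 4 among 10 is near what genes of this level gave. Called lower in that range were 17.4% in SM2 and 17.1% in SM4, with the 10 all on that side among those called. The median log2 fold change of the 10 was -0.14 in SM2 and -0.13 in SM4, against -0.0037 and -0.0011 for all genes tested, and 8 of 10 were below 0 in each. In SM4 against SM2 the median was 0.05, against -0.00022 for all genes, with 6 of 10 above 0. The 3 libraries lay wholly below those of NC for 7 of the 10 in SM2 and for 5 in SM4, where 17.2% and 19.3% of all genes did so, and for none of the 10 did they lie wholly above. Neither these shares nor the median log2 fold change was computed for the genes in their range of level. The median absolute log2 fold change of the 10 was 0.14 in SM2 and 0.13 in SM4. That was below the 0.16 of all genes tested in both, but above the 0.11 and 0.10 of the 7562 genes in their range of level.

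**Figure D1:**
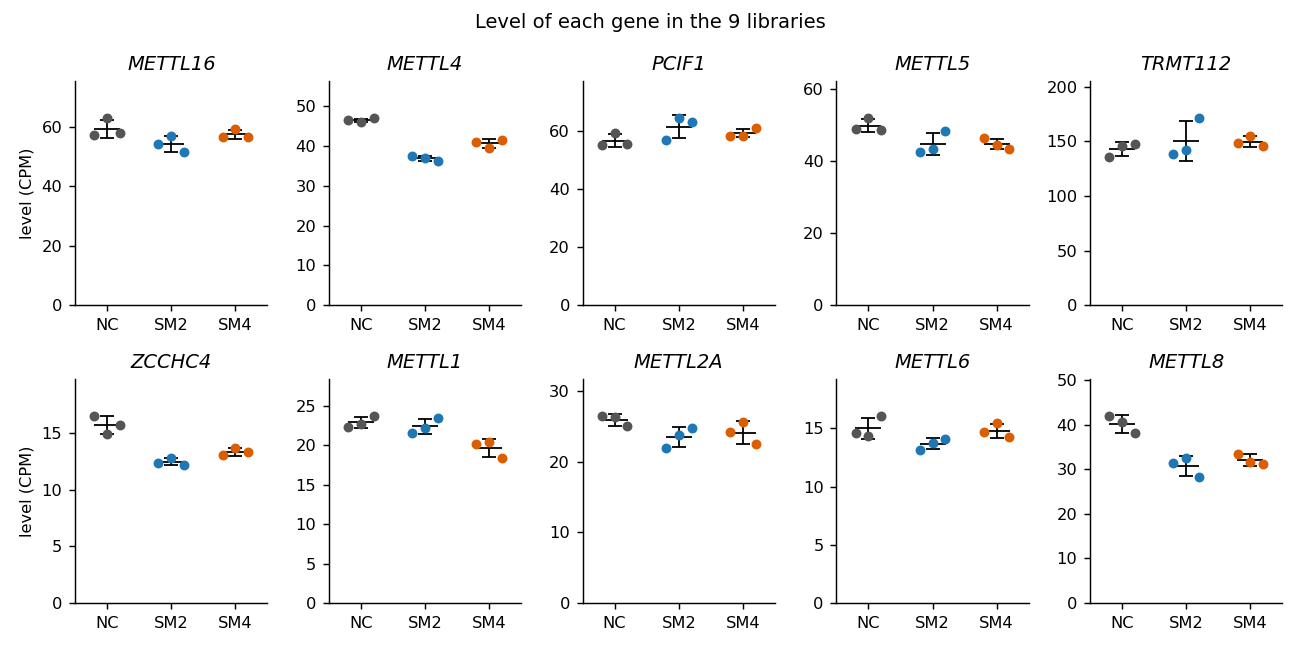
Level of each of the 10 genes in CPM (vertical axis, from 0) in the 3 libraries of NC, SM2 and SM4, with each point a library and the bar and whiskers the mean and SD. For METTL4, METTL8 and ZCCHC4 the libraries of SM2 and of SM4 lie below all 3 of NC, whereas TRMT112 and PCIF1 overlap among the groups.

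Of the enzymes that act on small nuclear RNA, METTL4 fell in both comparisons and METTL16 was called in neither. METTL4 (GRCh38 chr18:2537525-2571509, minus strand) stood at 46.5, 46.2 and 47.0 CPM in NC, at 37.6, 37.0 and 36.3 CPM in SM2 and at 41.1, 39.5 and 41.6 CPM in SM4. The 3 groups did not overlap, with SM2 lowest and SM4 between SM2 and NC. METTL4 was 20.6% lower in SM2 (log2 fold change -0.33 ± 0.05 SE, 95% confidence interval -0.44 to -0.23, edgeR adjusted p = 5.09e-05) and 12.5% lower in SM4 (-0.19 ± 0.05 SE, -0.30 to -0.09, edgeR adjusted p = 0.00762). The difference between SM4 and SM2 was 0.14 (0.04 to 0.25, edgeR adjusted p = 0.074) and was not called. Both calls against NC held under all 16 alternative settings.

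METTL16 (chr17:2405562-2511891, minus strand) stood at 57.2, 62.8 and 57.9 CPM in NC, at 54.2, 56.8 and 51.6 CPM in SM2 and at 56.6, 59.2 and 56.5 CPM in SM4. The SM2 libraries were all just below those of NC, and those of SM4 overlapped both. Neither difference was called (log2 fold change -0.13, 95% interval -0.24 to -0.02, edgeR adjusted p = 0.0892 in SM2, and -0.05, -0.16 to 0.06, edgeR adjusted p = 0.613 in SM4). Under the replicate block, METTL16 in SM2 passed the threshold at edgeR adjusted p = 0.0498, the lowest among alternatives that reached up to 0.373. MAT2A, whose sites are printed above, stood at 378, 353 and 368 CPM in NC, at 327, 354 and 369 CPM in SM2 and at 412, 372 and 421 CPM in SM4. It was called in neither comparison with NC (log2 fold change -0.07, edgeR adjusted p = 0.416 in SM2, and 0.13, edgeR adjusted p = 0.073 in SM4), whereas it was higher in SM4 than in SM2 (0.20 ± 0.05 SE, edgeR adjusted p = 0.0126). That last call was lost without SM2 replicate 1 (0.15), SM4 replicate 1 (0.18) or SM4 replicate 3 (0.16).

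PCIF1 (chr20:45934683-45948023, plus strand), the enzyme that methylates the first transcribed adenosine beside the cap, stood at 55.1, 59.1 and 55.4 CPM in NC, at 57.0, 64.3 and 63.1 CPM in SM2 and at 58.4, 58.4 and 61.0 CPM in SM4. The groups overlapped. It was not called in SM2 (log2 fold change 0.12, 95% interval 0.01 to 0.23, edgeR adjusted p = 0.121) or in SM4 (0.07, -0.04 to 0.18, edgeR adjusted p = 0.437). Without SM2 replicate 1, the lowest of its group, the SM2 difference was 0.17 and passed the threshold.

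Of the genes for ribosomal RNA methylation, ZCCHC4 fell, METTL5 lay just short of the threshold and TRMT112 was called nowhere. ZCCHC4 (chr4:25312774-25370383, plus strand), which methylates an adenosine of the large ribosomal subunit's 28S RNA, stood at 16.5, 14.9 and 15.8 CPM in NC, at 12.4, 12.8 and 12.2 CPM in SM2 and at 13.1, 13.7 and 13.4 CPM in SM4. Libraries of the 3 groups did not overlap, and again SM2 was lowest. The gene was 20.6% lower in SM2 (log2 fold change -0.33 ± 0.07 SE, 95% interval -0.49 to -0.18, edgeR adjusted p = 0.00222) and 14.9% lower in SM4 (-0.23 ± 0.07 SE, -0.38 to -0.08, edgeR adjusted p = 0.0253). The SM2 call held in all 16 alternatives. The SM4 call did not, and was lost without NC replicate 1 (-0.20), NC replicate 3 (-0.23), SM4 replicate 1 (-0.21) or SM4 replicate 3 (-0.23) and with no filter on low counts (-0.23). ZCCHC4 had the fewest counts of the 10, from 566 to 922 per library.

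METTL5 (chr2:169810081-169824931, minus strand), which methylates an adenosine of the small subunit's 18S RNA, stood at 48.7, 51.8 and 48.6 CPM in NC, at 42.6, 43.4 and 48.2 CPM in SM2 and at 46.3, 44.4 and 43.4 CPM in SM4. All SM2 and all SM4 libraries were below those of NC, with SM2 replicate 3 closest to them. The log2 fold change was -0.15 in both (95% intervals -0.27 to -0.03 and -0.27 to -0.04, edgeR adjusted p = 0.0598 and 0.0578), which did not pass. Without SM2 replicate 3 both passed, at -0.21 in SM2 and -0.15 in SM4, as did the SM2 difference by DESeq2 and the SM4 difference without SM2 replicate 1 or with only the 6 libraries compared. Exons of METTL5 share 572 bases with SSB, a gene for an RNA-binding protein on the other strand, which was lower in SM2 (log2 fold change -0.18, edgeR adjusted p = 0.00346) and not called in SM4 (-0.03, edgeR adjusted p = 0.707). The strand setting of the counting is not given in the sources used here, so reads in those bases cannot be assigned with certainty.

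TRMT112 (chr11:64316460-64317559, minus strand), the activator that METTL5 and other methyltransferases bind, was the highest of the 10, at 136, 146 and 147 CPM in NC, at 138, 142 and 171 CPM in SM2 and at 149, 155 and 145 CPM in SM4. The groups overlapped, and SM2 replicate 3 alone lay far above the rest. The log2 fold change was 0.07 in each (95% intervals -0.06 to 0.20 and -0.06 to 0.20, edgeR adjusted p = 0.468 and 0.531), and without SM2 replicate 3 the value in SM2 was -0.03. Its exons share 284 bases with ESRRA, a nuclear receptor gene on the other strand, which was lower in SM2 (log2 fold change -0.37, edgeR adjusted p = 2.86e-06) and not called in SM4 (-0.07, edgeR adjusted p = 0.323).

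Besides METTL5, 6 further enzymes that use TRMT112 were measured, acting on RNA or protein. Of these, 3 of 6 fell in SM2 (ALKBH8, N6AMT1 and TRMT11) and 0 of 6 fell in SM4, where 1 (THUMPD3) was called higher. Their median log2 fold change was -0.18 in SM2 and -0.13 in SM4, against -0.0037 and -0.0011 for all genes tested. Of all genes tested, 10.3% were called lower in SM2 and 11.0% were called higher in SM4. In the level range of the 10 genes, where these 6 also lay, those shares were 17.4% and 13.7%. ALKBH8, which modifies the wobble uridine of transfer RNA, stood at 27.97, 26.6 and 25.6 CPM in NC, at 19.8, 20.9 and 19.6 CPM in SM2 and at 24.7, 24.4 and 24.3 CPM in SM4. It was lower in SM2 than in NC (log2 fold change -0.41 ± 0.06 SE, edgeR adjusted p = 4.39e-05) and higher in SM4 than in SM2 (0.29 ± 0.06 SE, edgeR adjusted p = 0.00308), and the groups did not overlap. N6AMT1, a glutamine methyltransferase, had a value of -0.27 in SM2 (edgeR adjusted p = 0.00253) and -0.14 in SM4 (0.11, not called). TRMT11, which methylates guanosine in transfer RNA, had -0.23 in SM2 (edgeR adjusted p = 0.0154), a call that was lost without NC replicate 2 (-0.23), SM2 replicate 1 (-0.18) or SM2 replicate 2 (-0.20). The THUMPD3 call (0.18, edgeR adjusted p = 0.0348) came with libraries that overlapped, and was lost without NC replicate 1 (0.17), NC replicate 3 (0.14), SM4 replicate 1 (0.17) or SM4 replicate 2 (0.16). THUMPD2 and BUD23 were not called.

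Of the 4 enzymes for transfer RNA, METTL8 fell in both comparisons, METTL1 in SM4, and METTL2A and METTL6 in neither. METTL8 (chr2:171315746-171434802, minus strand), which makes 3-methylcytidine in mitochondrial transfer RNA, stood at 41.9, 40.5 and 38.03 CPM in NC, at 31.4, 32.4 and 28.3 CPM in SM2 and at 33.5, 31.5 and 31.1 CPM in SM4. Both groups lay wholly below NC and overlapped each other. METTL8 was 23.5% lower in SM2 (log2 fold change -0.39 ± 0.06 SE, 95% interval -0.52 to -0.26, edgeR adjusted p = 0.000107) and 20.1% lower in SM4 (-0.32 ± 0.06 SE, -0.45 to -0.20, edgeR adjusted p = 0.000557), and both calls held in all 16 alternatives. The difference between SM4 and SM2 was 0.06 (-0.07 to 0.19). SARS2, the mitochondrial seryl-tRNA synthetase, was not called in SM2 (-0.18, edgeR adjusted p = 0.178) or SM4 (-0.09, edgeR adjusted p = 0.566). The 37 genes of the mitochondrial genome, the source of METTL8's substrates, had 0 counts in every library of the table and so give no value here.

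METTL1 (chr12:57768471-57772119, minus strand), the catalytic subunit for 7-methylguanosine in transfer RNA, stood at 22.4, 22.7 and 23.7 CPM in NC, at 21.6, 22.2 and 23.5 CPM in SM2 and at 20.2, 20.5 and 18.3 CPM in SM4. SM2 overlapped NC, while SM4 lay below both. It was 14.2% lower in SM4 (log2 fold change -0.22 ± 0.07 SE, 95% interval -0.36 to -0.08, edgeR adjusted p = 0.0193) and not called in SM2 (-0.03, -0.17 to 0.10, edgeR adjusted p = 0.787). The difference between SM4 and SM2 (-0.19, -0.33 to -0.05, edgeR adjusted p = 0.0674) was not called, so METTL1 was not shown to differ between the groups. The SM4 call was lost without NC replicate 2 (-0.23), NC replicate 3 (-0.20) or SM4 replicate 3 (-0.18). WDR4, its non-catalytic partner, had -0.11 in both comparisons (edgeR adjusted p = 0.178 and 0.181), with all libraries of SM2 and SM4 below those of NC and no call.

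METTL2A (chr17:62423875-62453385, plus strand), which makes 3-methylcytidine in cytosolic transfer RNA, stood at 26.5, 26.3 and 24.996 CPM in NC, at 21.96, 23.8 and 24.8 CPM in SM2 and at 24.2, 25.7 and 22.5 CPM in SM4. The SM2 libraries lay just below NC and those of SM4 overlapped it, and the difference was not called (log2 fold change -0.14, 95% interval -0.28 to 0.0011, edgeR adjusted p = 0.155 in SM2, and -0.10, -0.24 to 0.04, edgeR adjusted p = 0.323 in SM4). METTL2B is a nearly identical copy, and how reads were divided between them is uncertain. It had -0.03 in SM2 and -0.07 in SM4, and the counts of both summed as 1 gene gave -0.09 and -0.08, not called. DALRD3, a partner of METTL2A, was not called in SM2 (0.08) or SM4 (0.0038).

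METTL6 (chr3:15381275-15440566, minus strand), which acts on the serine transfer RNA, stood at 14.6, 14.3 and 16.1 CPM in NC, at 13.2, 13.7 and 14.1 CPM in SM2 and at 14.7, 15.5 and 14.3 CPM in SM4. Only the SM2 libraries lay apart from NC, all below it, and neither difference was called (log2 fold change -0.14, 95% interval -0.29 to 0.02, edgeR adjusted p = 0.223 in SM2, and -0.02, -0.18 to 0.13, edgeR adjusted p = 0.890 in SM4). Its partner SARS1, the cytosolic seryl-tRNA synthetase, was higher in both, from 121, 126 and 123 CPM in NC to 135, 138 and 141 CPM in SM2 and 139, 143 and 139 CPM in SM4. These were log2 fold changes of 0.16 ± 0.04 SE (edgeR adjusted p = 0.00648) and 0.19 ± 0.04 SE (edgeR adjusted p = 0.00171), of which the first was lost without NC replicate 1 (0.15).

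**Figure D2:**
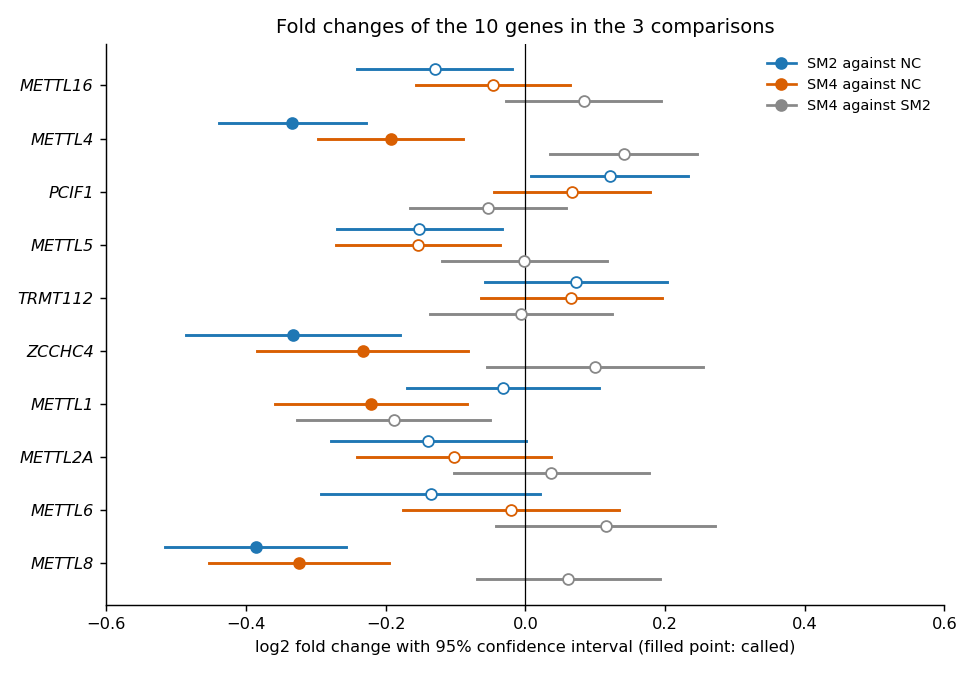
Log2 fold change of each of the 10 genes (horizontal axis) with its 95% confidence interval for SM2 and SM4 each against NC and for SM4 against SM2, where a filled point is a called gene and an open point one that was not. Filled points are all left of 0, 3 in SM2 (-0.33 to -0.39) and 4 in SM4 (-0.19 to -0.32), and there is none in SM4 against SM2.

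**Figure D3:**
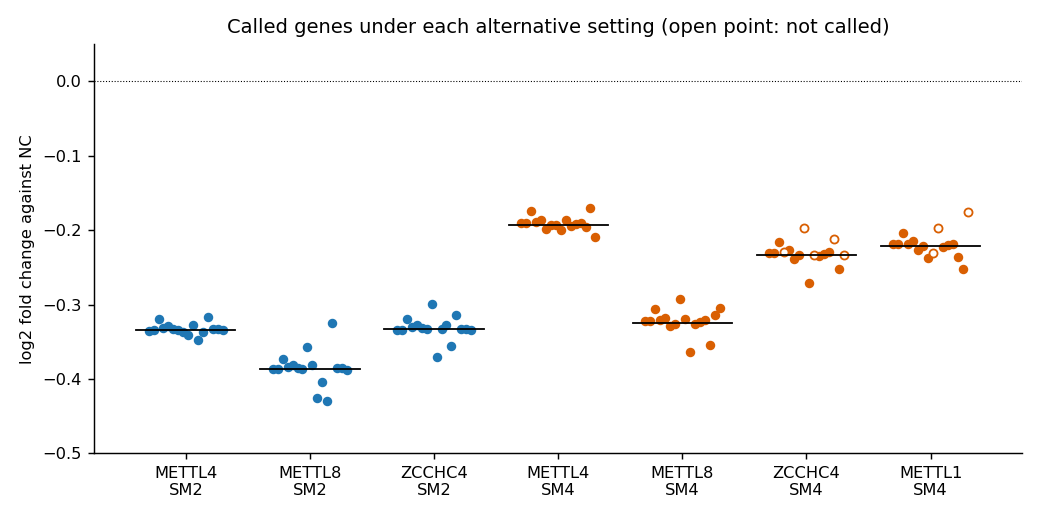
Log2 fold change against NC (vertical axis) of the called genes under each of the 16 alternative settings, with the black line at the value of the text and an open point where the gene was not called. METTL4 and METTL8 have filled points alone in both comparisons and ZCCHC4 in SM2, whereas ZCCHC4 has 5 open points and METTL1 3 in SM4.

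In bulk RNA a lower level can come from fewer cells that express a gene or from less RNA per cell, and these cannot be told apart. Levels of different genes were compared per kilobase of summed exon length. On that scale TRMT112 was highest in NC at 130.1 CPM per kb, 7.28 times PCIF1 (17.9), followed by METTL5 (17.4), METTL1 (11.8), METTL4 (8.13), METTL16 (6.64), METTL2A (4.05), ZCCHC4 (3.61), METTL8 (3.42) and METTL6 (2.15). Neighbours in this order that overlapped among the NC libraries were PCIF1 with METTL5, at a ratio of 1.03, and ZCCHC4 with METTL8, at a ratio of 1.05. The order was the same in the means of SM2 and of SM4. The enzymes for transfer RNA spread from 11.8 (METTL1) to 2.15 (METTL6) CPM per kb in NC, so on this scale enzymes of 1 kind of substrate did not share a level. The length used sums the exons of all annotated transcripts, not of those expressed, so the order depends on it. In CPM without length, METTL8 (40.1) stood above METTL1 (22.9) in NC.

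**Figure D4:**
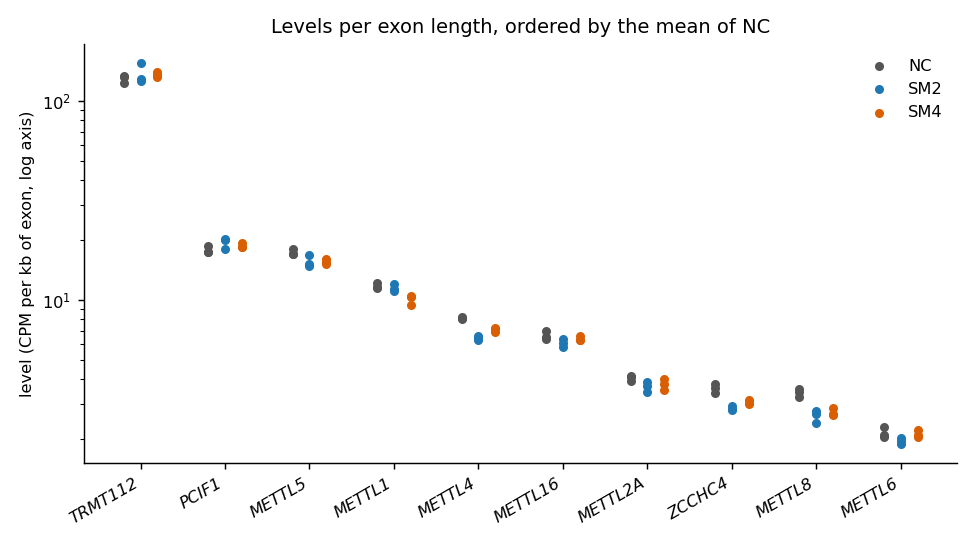
Levels of the 10 genes in CPM per kilobase of exon (vertical log axis), each point a library and each colour a group, ordered by the NC mean. TRMT112 lies at 130.1 CPM per kb in NC, far above PCIF1 at 17.9, and METTL6 is lowest at 2.15.

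Across the 9 libraries, METTL4 and ZCCHC4 had a Pearson r of log2 CPM of 0.93, METTL8 and ZCCHC4 0.91, and METTL4 and METTL8 0.90. The next pair, METTL5 and METTL2A, had 0.80. PCIF1 ran the other way to METTL4 (-0.69), ZCCHC4 (-0.69) and METTL8 (-0.64). These are descriptions over n = 9 libraries that share 3 groups and are not independent, so they carry the differences between groups. Among the 9449 other protein-coding genes of at least 10 CPM, the one whose levels ran most like METTL4 was MYO19 (r = 0.98), like METTL8 DSG2 (0.99), like ZCCHC4 B3GNT5 (0.98) and like METTL5 GGCT (0.98). For the rest they were SMIM22 with TRMT112 (0.96), ADI1 with METTL1 (0.95), PMS2 with METTL16 (0.95), LMF2 with PCIF1 (0.94), PRTFDC1 with METTL6 (0.93) and ACTR5 with METTL2A (0.91).

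The promoters of the genes that fell in both comparisons are printed to show what they have in common and what they have not. RefSeq (GRCh38.p14) gave a promoter for 9 of the 10 genes, with METTL1 the one without an entry. The 250 bases before the start are METTL4 at chr18:2571506-2571755 (minus strand), METTL8 at chr2:171434773-171435022 (minus strand) and ZCCHC4 at chr4:25312524-25312773 (plus strand), written 5′ to 3′. Capitals mark letters that match a motif searched for on both strands.
METTL4: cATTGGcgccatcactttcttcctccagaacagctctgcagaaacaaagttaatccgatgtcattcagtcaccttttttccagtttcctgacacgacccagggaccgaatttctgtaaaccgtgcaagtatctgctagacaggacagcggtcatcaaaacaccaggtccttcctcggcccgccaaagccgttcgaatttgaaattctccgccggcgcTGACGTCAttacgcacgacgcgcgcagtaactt
METTL8: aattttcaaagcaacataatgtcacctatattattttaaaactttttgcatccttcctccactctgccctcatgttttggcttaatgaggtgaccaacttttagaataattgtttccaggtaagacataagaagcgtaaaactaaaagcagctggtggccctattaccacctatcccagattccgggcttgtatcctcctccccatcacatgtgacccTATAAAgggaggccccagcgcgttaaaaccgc
ZCCHC4: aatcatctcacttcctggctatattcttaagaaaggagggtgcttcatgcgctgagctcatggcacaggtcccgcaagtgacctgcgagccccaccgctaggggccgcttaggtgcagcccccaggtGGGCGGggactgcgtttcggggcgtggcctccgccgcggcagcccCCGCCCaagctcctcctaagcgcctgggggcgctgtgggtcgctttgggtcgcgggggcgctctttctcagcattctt
The capitals of METTL4 are the CRE motif TGACGTCA, which begins at -33 from the start, and CCAAT read on the other strand at -249. METTL8 has the TATA box TATAAA at -32, and ZCCHC4 has GGGCGG of SP1 at -123 and, on the other strand, at -78. No motif searched for was shared by the 3 promoters.

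The search covered 9 motifs in windows of 300 bases, the 250 above and the first 50 of the transcript, over 35116 promoters. TGACGTCA was in 1.85% of them and in METTL4 among the 9 genes, TATAAA in 11.5% and in METTL8, and GGGCGG in 45.0% and in METTL5, METTL2A, METTL6 and ZCCHC4. The YY1 motif AAGATGGCG, found in 1.75% of all promoters, was in those of METTL16, PCIF1 and ZCCHC4, where it began at +34. CCGGAAG of the ETS family (10.3%) was in METTL5, METTL6 and TRMT112, with 3 matches each in METTL6 and TRMT112, and CCAAT (34.6%) in METTL4, METTL16 and TRMT112. GCATGCGC of NRF1 (3.05%) was in PCIF1, where its matches at -13 and -11 overlap, TCTCGCGA of ZBTB33 (1.15%) in METTL16, and ACTACAATT of ZNF143 (0.34%) in none. A match is a run of letters and not a measured binding site.

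Several of the 10 genes start or lie beside another gene. NDC80, a kinetochore gene, starts 48 bases from METTL4 on the other strand and was called in neither comparison with NC (log2 fold change -0.11, edgeR adjusted p = 0.0867 in SM2, and 0.03, edgeR adjusted p = 0.749 in SM4), where METTL4 fell in both. It was called in SM4 against SM2 (0.14, edgeR adjusted p = 0.0495), and 10 of 16 alternatives lost that call, among them leaving out any library but SM2 replicate 3, with values from 0.11 to 0.15. DCAF17 starts 585 bases from METTL8 on the other strand, with 129 exon bases shared, and was lower in SM2 (-0.29, edgeR adjusted p = 0.00342) and not called in SM4 (-0.14, edgeR adjusted p = 0.161). PRDX5, a peroxiredoxin gene that starts 562 bases from TRMT112, was higher in SM4 (0.22, edgeR adjusted p = 0.0121), a call lost without NC replicate 1 (0.16), SM4 replicate 2 (0.20) or SM4 replicate 3 (0.19). METTL1 shares 107 exon bases with CYP27B1, a vitamin D hydroxylase gene on the same strand, which was lower in SM2 (-0.60, edgeR adjusted p = 0.0112) except without NC replicate 2 (-0.52) or SM2 replicate 2 (-0.49). It also shares 114 with EEF1AKMT3, which starts 627 bases away on the other strand and whose values were -0.15 in SM2 and -0.22 in SM4, not called. METTL6 shares 343 exon bases with EAF1 on the other strand (-0.11 and -0.06, not called). Its RefSeq promoter (chr3:15427495-15427794) lies inside the GENCODE extent of METTL6, and the distance from that start to EAF1 was not measured. PCIF1 shares 122 exon bases with a long non-coding RNA gene (ENSG00000285796) at 2.10 to 3.26 CPM. That gene starts 372 bases away on the other strand and was not called. A further non-coding gene within METTL4 (ENSG00000266783) had at most 44 counts in a library and was not called.

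Related genes were taken from lists of other methyltransferases and METTL-named genes, of partners and substrates of the 10, and of the S-adenosylmethionine cycle. Not all of them are methyltransferases. The lists held 82 genes in all, of which 81 were tested. Of these, 5 rose and 15 fell in SM2 (20 of 81), and 4 rose and 16 fell in SM4, where 12.0% and 11.0% of all genes rose and 10.3% and 10.2% fell. Among the 7562 genes in the level range of the 10, 14.6% and 13.7% rose and 17.4% and 17.1% fell. Some of the listed genes lay outside that range. Their median log2 fold change was -0.07 in SM2 and -0.08 in SM4. Without NC replicate 2 the count of listed genes called was 13 in each comparison, and in SM4 it was 11 without SM4 replicate 1 and 12 without SM4 replicate 3.

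Among 23 other transfer RNA methyltransferases, 5 fell in SM2 and 8 in SM4 and none rose, with medians of -0.09 and -0.14. The largest fall was that of TRMT10A, a guanosine methyltransferase, from 7.53, 6.71 and 6.97 CPM in NC to 6.02, 5.62 and 5.45 CPM in SM2 and 4.97, 4.70 and 5.34 CPM in SM4. Both groups lay below NC (log2 fold change -0.50 ± 0.10 SE, edgeR adjusted p = 0.00132 in SM4, held in all 16 alternatives, and -0.31, edgeR adjusted p = 0.0363 in SM2, lost in 6 of them). Those 6 were no filter (-0.31) and leaving out NC replicate 1 (-0.27), 2 (-0.35) or 3 (-0.32) or SM2 replicate 2 (-0.30) or 3 (-0.28). Among 13 other ribosomal RNA methyltransferases, 4 fell in SM2 and 5 in SM4 and none rose, with medians of -0.15 and -0.13, and NOP2, a cytosine methyltransferase, had the largest fall (-0.45 in SM2, edgeR adjusted p = 0.0226). At 3.22 to 4.24 CPM in NC and 2.70 to 2.85 CPM in SM2 it was a low gene, and its call was lost without NC replicate 2 (-0.44), NC replicate 3 (-0.36) or SM2 replicate 3 (-0.43).

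Of 20 other METTL-named genes, many of them enzymes that methylate proteins, 19 were tested. In SM2, 4 rose and none fell, and in SM4, 2 rose and 1 fell (METTL24 had too few counts). METTL7A, a thiol methyltransferase that like METTL3 was highest in SM4, stood at 2.94, 2.85 and 3.40 CPM in NC, 4.60, 5.08 and 4.45 CPM in SM2 and 6.88, 6.01 and 5.29 CPM in SM4 by their labels, with no overlap of the groups (log2 fold change 0.62 ± 0.13 SE, edgeR adjusted p = 0.00164, and 0.98 ± 0.13 SE, edgeR adjusted p = 8.39e-06). METTL21A, a lysine methyltransferase of chaperones, was the one that fell (-0.25 in SM4, edgeR adjusted p = 0.0058), and its call was lost without SM4 replicate 3 (-0.19). The median of the 19 was 0.01 in SM2 and -0.02 in SM4, close to that of all genes.

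Among 8 genes for cap and small RNA methylation, 2 fell in SM2 and none was called in SM4, with medians of -0.07 and -0.03. RAMAC, the activator of the cap guanine methyltransferase, had the largest fall (-0.34 in SM2, edgeR adjusted p = 0.0158), lost without NC replicate 2 (-0.33) or SM2 replicate 2 (-0.25). Of 7 genes of the S-adenosylmethionine cycle, 1 fell in SM2 and 2 in SM4, with medians of -0.07 and -0.09. AHCYL2, a relative of the enzyme that clears S-adenosylhomocysteine, was at 61.6, 56.7 and 60.1 CPM in NC, 61.9, 60.2 and 54.9 CPM in SM2 and 46.2, 44.8 and 47.0 CPM in SM4. SM4 lay below both other groups (log2 fold change against NC -0.37 ± 0.05 SE, edgeR adjusted p = 3.17e-05). Of the 6 partners and substrates of the 10 genes, SARS1 alone was called against NC, higher in both comparisons, with medians of -0.05 and -0.03.

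**Figure D5:**
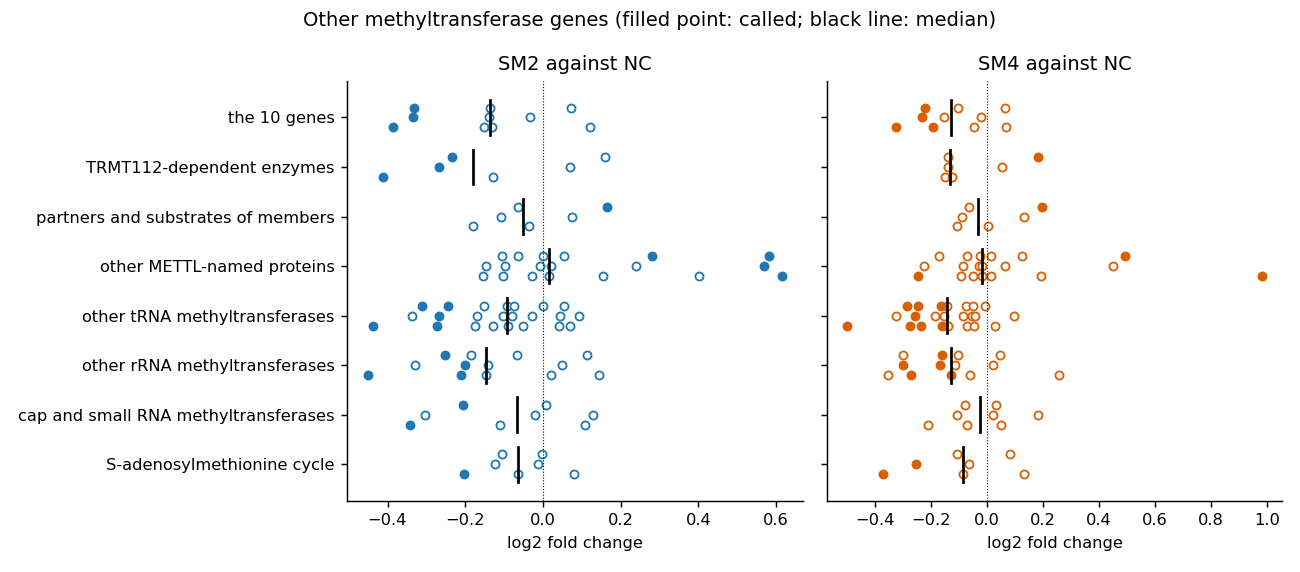
Log2 fold change against NC (horizontal axis) of the 10 genes and of each list, in SM2 on the left and SM4 on the right, where each point is a gene, a filled point a called one and the black line the median. The called points of the transfer RNA and ribosomal RNA lists all lie left of 0 (5 and 4 in SM2, 8 and 5 in SM4), and those of the METTL-named list lie mostly to its right.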

How the data were processed

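OVCAR5 RNA was sequenced in 9 libraries, 3 each of NC, SM2 and SM4, grouped by library title. The authors deposited raw counts per gene, 1 column per library, without normalization. Per the study's methods, reads were aligned to hg38 with hisat2 and counted with Subread, and the submitters' processing notes also name fastp and featureCounts. Versions, annotation and strand setting are not given in the sources used here, and labels and methods disagree on kit and read layout. Gene names, exon lengths and positions came from GENCODE release 44, which held 60463 of the 60649 genes.

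In R 4.3.3 with edgeR 4.0.16, genes were filtered with filterByExpr (40975 removed, 19674 tested), scaled by TMM and tested with the quasi-likelihood F test, with all 9 libraries in a model of group alone and Benjamini-Hochberg adjustment. The common biological coefficient of variation was 0.0587. Standard errors are the log2 fold change over the square root of F. CPM was computed here from the deposited counts, which carry no molecular identifiers. Alternatives were DESeq2 1.42.0, other scaling factors and filters, the 6 libraries compared, METTL2A summed with METTL2B, a replicate block and leaving out each library. Scripts were tested on simulated data.

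The genes named were the 10, METTL3, known partners, overlapping genes and genes starting within 1000 bases on the other strand, the gene of at least 10 CPM most like each in level, and the largest rise and fall called against NC in each list. The 10 genes and the lists were chosen with earlier results of these data known. Motifs were searched in RefSeq promoters with Python 3.11.15, and figures were drawn with matplotlib 3.10.9. One marker gene and one substrate sequence are not reported here.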

Additional observations from a re-analysis of the deposited data

Results flagged for a closer look

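The difference between SM4 and SM2 was itself past the threshold for 7 of the genes named beside the 10, and for none of the 10. METTL3 differed by a log2 fold change of 0.63, higher in the libraries labelled SM4. ALKBH8, which uses TRMT112, differed by 0.29, lower in SM2 than in either other group. MAT2A, the messenger RNA bound by METTL16, differed by 0.20, with the mean of NC between the groups. ESRRA, which overlaps TRMT112, differed by 0.31, SSB, which overlaps METTL5, by 0.15 and NDC80, which starts beside METTL4, by 0.14. Of 16 alternatives, the call of ESRRA held in 16, that of MAT2A in 13, that of SSB in 11 and that of NDC80 in 6. AHCYL2 of the S-adenosylmethionine cycle differed by -0.36, lower in SM4.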

How the results depend on the processing

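Of 483 values of the 10 genes under alternatives, 453 kept their direction and side of the threshold. Calls of METTL4 and METTL8 against NC held in all 16 alternatives, and in SM2 that of ZCCHC4. Leaving out each library, the number called in SM4 against NC ranged from 2 to 5 (2 without NC replicate 3 or SM4 replicate 3, METTL4 and METTL8), and all genes called in SM4 against SM2 from 1574 to 2748. Signs turned for uncalled values near 0. METTL5 in SM4 against SM2 (-0.0016) was 0.0023 by DESeq2 and by RLE factors and 0.0024 by upper-quartile factors, and -0.036 to 0.055 leaving out libraries. The same ranges were -0.011 to 0.084 for METTL2A and -0.063 to 0.096 for TRMT112 in SM4 against SM2, -0.055 to 0.031 for METTL6 in SM4 against NC, and -0.028 to 0.13 for TRMT112 in SM2 against NC. For these the cause was not tested. Replicate numbers did not pair the libraries (correlations of deviations -0.05 to 0.05). With the replicate block, 4 of the 10 were called in SM2 (METTL16 added), 4 in SM4 and 0 in SM4 against SM2, beside 4693, 4484 and 2815 of all genes. Counts per library ran from 566 (ZCCHC4) to 9791 (TRMT112), so counting error weighs most on ZCCHC4.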
